A study of Mus musculus with 288 samples.

Results

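The Krueppel-like factor genes were followed across single lung epithelial cells: Klf2, Klf3, Klf4, Klf5, Klf6, Klf9 and Klf13. These 7 of the 24781 genes in the deposited table were chosen by name, and their levels were compared between wells that differed in the secretory genes Sftpc and Scgb3a1. The cells came from C57BL/6 mice aged 4 months with the alleles Scgb1a1-CreER and Rosa26-mTmG, so that recombination was driven by the promoter of Scgb1a1, the club cell secretoglobin, and marked by a switch of fluorescent protein. All sorted cells shared this genotype and were gated as Epcam+, CD45-, CD31- and CD24low with the Scgb1a1 lineage mark, and 2 negative control wells accompanied 286 wells with a sorted cell. No label names the animal of a cell, so the wells together count as 1 sample, and cells were not used as replicates for any p-value.

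The wells fell into 3 classes by the share of their counts taken by 2 genes, and these shares are the rule and not a result. In 63 Sftpc wells, surfactant protein C (Sftpc), the defining gene of alveolar type 2 cells, took at least 1% of the total. In 74 Scgb3a1 wells, the secretoglobin gene Scgb3a1 took at least 1%, and in 90 other wells both genes were below that limit. No well passed both limits. The highest share below the limit was 0.734% for Sftpc and 0.876% for Scgb3a1, and the lowest share above it was 2.07% for Sftpc and 1.01% for Scgb3a1. Labels of cell identity were checked against marker lists. The class genes themselves were left out of this check, and it is a description. Each of the other 11 alveolar type 2 markers had a higher pooled level in Sftpc wells than in other wells, with the smallest ratio, 2.79, for Sftpb. Of the other 6 goblet markers, Bpifb1 had 3049 counts in Scgb3a1 wells and 22 in other wells, Tff2 1307 and 16, Muc5b 1219 and 45, and Agr2 124 and 4. Muc5ac had 17 counts in Scgb3a1 wells and 0 in other wells, and Spdef had 11 and 1. Of the 10 endothelial markers, 3 were counted in Sftpc wells, 2 in Scgb3a1 wells and 4 in other wells, led by Esam with 9 counts in Sftpc wells and Kdr with 13 counts in other wells, while Pecam1, Tek, Emcn and Vwf were at 0 in all 3 classes. Of the 10 immune markers, 2, 1 and 2 were counted in the same classes, with at most 5 counts each (Cd68 in other wells), and Ptprc was at 0. The 9 club markers together held 14422 counts in Sftpc wells, 157857 in Scgb3a1 wells and 193772 in other wells. Of these, 10817, 116908 and 154232 were counts of the club gene Scgb1a1. Its median share was 0.968% in Sftpc wells, 23.5% in Scgb3a1 wells and 31.6% in other wells. Relative to other wells, 2 of the 9 club markers were at least 2-fold higher in Scgb3a1 wells, 2 at least 2-fold lower and 5 neither. Scgb3a1 wells thus held club as well as goblet markers. In Sftpc, Scgb3a1 and other wells, in that order, the 8 alveolar type 1 markers held 416, 322 and 358 counts. The 8 ciliated markers held 119, 349 and 433. The summed counts of the classes differed, at 240677, 513183 and 505258. Scaled to these sums as CPM, which is defined below, the alveolar type 1 markers were at 1728, 627 and 709. The ciliated markers were at 494, 680 and 857 CPM. Most of the ciliated counts were of 1 gene, Tubb4b, with 93, 288 and 228, so these sums do not by themselves show ciliated identity. The 6 basal markers held 1, 136 and 8, and the 8 mesenchymal markers 2, 3 and 1. The 227 kept wells were those with more than 2340 counts, which is 10 times the higher negative control. Their totals lay between 2384 and 15088, with medians of 3529 counts in Sftpc wells, 6940.5 in Scgb3a1 wells and 5406 in other wells. The negative controls held 41 and 234 counts, of which 1 in the second was Klf5 and none belonged to the other 6 genes.

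Krueppel-like factors are transcription factors with C2H2 zinc fingers at their carboxyl end that bind GC-rich and CACCC-type elements. Klf4 and Klf5 are known regulators of epithelial differentiation and growth, Klf2 and Klf4 are known from quiescent endothelium, and Klf6 is induced early after many stimuli. Klf3 represses transcription through the Ctbp corepressors, and Klf9 and Klf13 bind the Sin3a corepressor, with Klf9 a known target of the glucocorticoid receptor.

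The promoters of Klf4, Klf6 and Klf9 are shown because Klf4 had the largest ratios over other wells, Klf6 was higher in some of the other wells than in most of them and Klf9 was at nearly the same level in all 3 classes. Each is the 250 bases before the RefSeq start on GRCm38.p6, written 5′ to 3′ on the gene's strand, and capitals mark GGGCGG (the GC box), CACCC (the CACCC box), TGACG (a core of the cAMP response element) and CCAAT (the CCAAT box), each on either strand. The Klf4 sequence is chr4:55532476-55532725 on the minus strand, the Klf6 sequence is chr13:5861239-5861488 on the plus strand, and the Klf9 sequence is chr19:23140976-23141225 on the plus strand. The last bases of the Klf6 sequence lie inside the longer transcript annotated by GENCODE M21.
Klf4: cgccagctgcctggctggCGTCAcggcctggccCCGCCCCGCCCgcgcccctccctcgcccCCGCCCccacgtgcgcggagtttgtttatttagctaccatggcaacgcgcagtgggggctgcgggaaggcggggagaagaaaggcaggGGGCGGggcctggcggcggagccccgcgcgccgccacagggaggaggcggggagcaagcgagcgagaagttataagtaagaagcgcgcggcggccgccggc
Klf6: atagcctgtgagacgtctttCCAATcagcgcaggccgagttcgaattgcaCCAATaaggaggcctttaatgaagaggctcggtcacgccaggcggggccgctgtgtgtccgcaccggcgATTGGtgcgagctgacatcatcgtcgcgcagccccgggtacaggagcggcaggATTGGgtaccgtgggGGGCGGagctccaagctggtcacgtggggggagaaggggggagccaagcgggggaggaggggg
Klf9: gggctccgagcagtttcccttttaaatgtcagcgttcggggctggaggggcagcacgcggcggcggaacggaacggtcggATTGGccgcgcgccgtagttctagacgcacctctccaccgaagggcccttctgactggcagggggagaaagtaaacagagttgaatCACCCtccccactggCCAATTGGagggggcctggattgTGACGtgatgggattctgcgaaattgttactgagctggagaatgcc
The Klf4 promoter held 4 GC boxes, of which a pair shares 1 base, together with 1 TGACG match and no CACCC or CCAAT match. The Klf6 promoter held 1 GC box and 4 CCAAT matches. The Klf9 promoter held 1 CACCC match, 1 TGACG match and 3 CCAAT matches, of which a pair on opposite strands overlaps. None of these 3 sequences held both a GC box and a CACCC match, whereas the promoters of Klf2, Klf3 and Klf13, which are not shown, each held both. Among 27025 promoter windows of the same length, 32.9% held a GC box, 51.3% CACCC, 17.9% TGACG and 34.5% CCAAT. The GC content was 74.0% for Klf4, 64.8% for Klf6 and 59.6% for Klf9, against a median of 52% over all windows. Of the 7 genes, 6 matched the RefSeq promoter table. A match describes the letters and does not show binding.

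Per GENCODE M21 on GRCm38, the genes lie on 7 chromosomes and all are protein-coding. Klf4 spans chr4:55527143-55532466 on the minus strand, Klf5 chr14:99298691-99315036 on the plus strand and Klf6 chr13:5861482-5870394 on the plus strand. Klf9 spans chr19:23141226-23168134 on the plus strand, Klf13 chr7:63886351-63938915 on the minus strand, Klf2 chr8:72319033-72321656 on the plus strand and Klf3 chr5:64803388-64832901 on the plus strand. Counts were made per gene, so exons and introns are not separated.

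Klf4 showed the clearest pattern of the 7 genes over all kept wells. It was abundant in Scgb3a1 wells, present in about as many Sftpc wells as it was missing from, and rare in other wells. In the third set of 96 columns, Klf4 was higher in Sftpc wells than in the 5 Scgb3a1 wells, which held 4 Klf4 counts. By pooled level over all kept wells, Klf5 and Klf13 were lowest in Sftpc wells and highest in Scgb3a1 wells. That order did not hold for either gene in the third set of 96 columns described below. Klf9 was level across the classes. Klf6 was the most frequently counted of the 7 genes in every class. Levels are given as pooled CPM, a gene's summed counts over the summed counts of the wells, scaled to counts per 1000000, with an exact Poisson 95% interval that covers counting error only. Counts were not divided by transcript length, so CPM values are compared between classes within a gene and not between genes.

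Klf4 had 70 counts in Sftpc wells, 233 in Scgb3a1 wells and 31 in other wells. Its pooled level was 291 CPM (227 to 367) in Sftpc wells, 454 CPM (398 to 516) in Scgb3a1 wells and 61.4 CPM (41.7 to 87.1) in other wells. Over all kept wells the 3 intervals did not overlap. The pooled order from Scgb3a1 wells down to other wells thus exceeded the counting error at each step. In the third set of columns, with 40 of the 63 Sftpc wells and 5 of the 74 Scgb3a1 wells, Sftpc wells were above Scgb3a1 wells. Per well, Klf4 ranged from 0 to 2172 CPM with a median of 0 in Sftpc wells, from 0 to 2294 CPM with a median of 392 CPM in Scgb3a1 wells, and from 0 to 1391 CPM with a median of 0 in other wells. The ranges of the classes overlapped, because each class held wells with no Klf4 count: 33 Sftpc wells, 13 Scgb3a1 wells and 73 other wells. At least 1 Klf4 count was found in 47.6% of Sftpc wells (95% Clopper-Pearson interval 34.9 to 60.6), in 82.4% of Scgb3a1 wells (71.8 to 90.3) and in 18.9% of other wells (11.4 to 28.5). At equal depth, with each well thinned to 2384 counts, the expected shares were 38.1% of Sftpc wells, 58.6% of Scgb3a1 wells and 9.36% of other wells. At least 2 counts were found in 25.4% of Sftpc wells, 67.6% of Scgb3a1 wells and 5.56% of other wells, so the order of the classes was the same on all 3 measures.

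**Figure D1:**
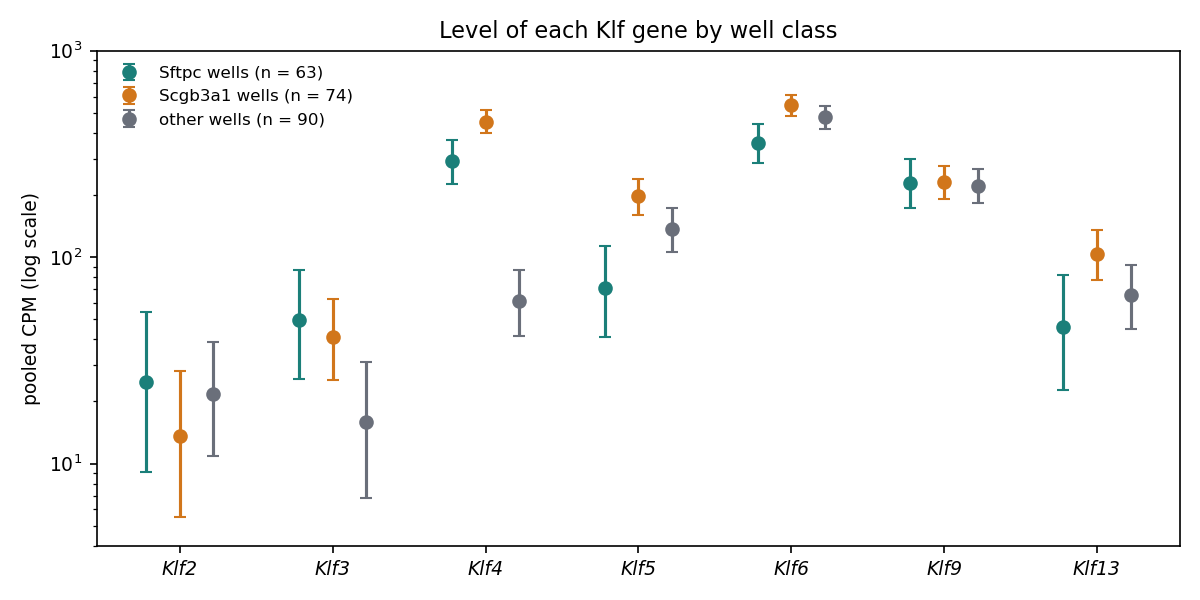
Pooled level in CPM on a log axis for each of the 7 genes in Sftpc wells, Scgb3a1 wells and other wells, with bars for the exact Poisson 95% interval. Klf4 lies at 291, 454 and 61.4 CPM in the 3 classes with separate intervals, whereas Klf9 lies at 229, 232 and 222 CPM.

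**Figure D2:**
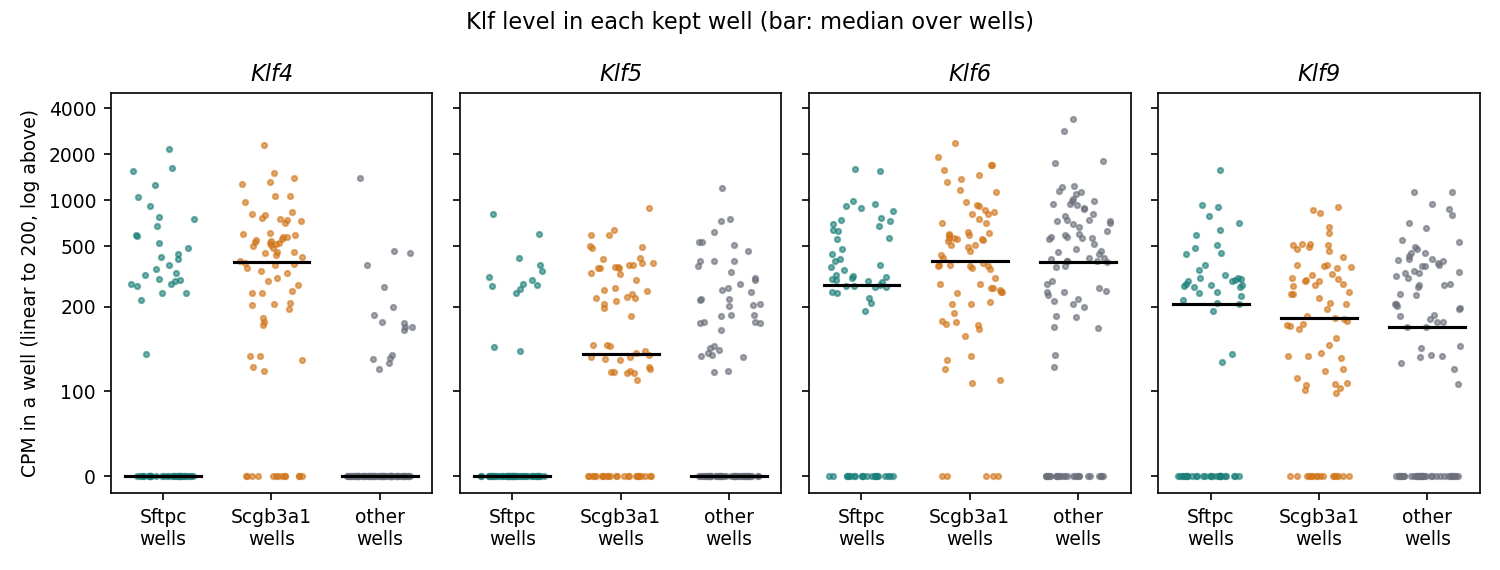
CPM of Klf4, Klf5, Klf6 and Klf9 in each of the 227 kept wells, on an axis that is linear to 200 and logarithmic above, with a bar at the median over wells. The median of Klf4 is 392 CPM in Scgb3a1 wells and 0 in the other classes, and each panel has wells at 0 in every class.

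Klf5, which drives proliferation in several epithelia and is needed for maturation of the developing mouse lung epithelium, had 17 counts in Sftpc wells, 101 in Scgb3a1 wells and 69 in other wells. Its level was 70.6 CPM (41.1 to 113) in Sftpc wells, 197 CPM (160 to 239) in Scgb3a1 wells and 137 CPM (106 to 173) in other wells. The interval of Sftpc wells overlapped that of other wells and lay below that of Scgb3a1 wells. Per well, Klf5 reached 810 CPM in Sftpc wells with a median of 0, 894 CPM in Scgb3a1 wells with a median of 144 CPM, and 1200 CPM in other wells with a median of 0. A count was found in 22.2% of Sftpc wells, 67.6% of Scgb3a1 wells and 46.7% of other wells, and at equal depth in 15.8%, 35.5% and 26.2% of the same classes. The single Klf5 count in a negative control bears on wells with only 1 count, and at least 2 counts were found in 3.17% of Sftpc wells, 37.8% of Scgb3a1 wells and 18.9% of other wells.

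Klf6 had 86 counts in Sftpc wells, 280 in Scgb3a1 wells and 241 in other wells. Its level was 357 CPM (286 to 441) in Sftpc wells, 546 CPM (484 to 613) in Scgb3a1 wells and 477 CPM (419 to 541) in other wells. The intervals of Scgb3a1 and other wells overlapped, as did those of Sftpc and other wells. Per well, the median was 278 CPM and the highest value 1596 CPM in Sftpc wells, 400 CPM and 2370 CPM in Scgb3a1 wells, and 396 CPM and 3394 CPM in other wells. Wells with a Klf6 count made up 65.1% of Sftpc wells, 93.2% of Scgb3a1 wells and 72.2% of other wells. At equal depth these shares were 51.3%, 65.5% and 56.0%, a narrower spread than as sequenced.

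Among the other wells, Klf6 was higher in the 8 with at least 3 counts of the ciliated cell genes Foxj1, Tppp3 and Ccdc153 together, a contrast chosen after the values were seen. The pooled Klf6 level was 1253 CPM (938 to 1639) in these 8 wells and 406 CPM (350 to 468) in the remaining 82 other wells, a ratio of 3.08 (95% interval 2.23 to 4.20, counting error only). All 8 wells had a Klf6 count, with a lowest value of 413 CPM, a median of 1006 CPM and a highest value of 3394 CPM, while the remaining wells ranged from 0 to 2834 CPM with a median of 290 CPM. The 2 sets of values overlapped. Klf4 was at 94.5 CPM in the 8 wells and 58.3 CPM in the remaining wells, a ratio of 1.62 whose interval of 0.412 to 4.65 includes 1. The summed level of 25 immediate early genes was also higher, at 11204 CPM in the 8 wells and 6813 CPM in the remaining wells, and its part in the Klf6 difference was not tested.

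Klf9 had 55 counts in Sftpc wells, 119 in Scgb3a1 wells and 112 in other wells. Its level was 229 CPM (172 to 297) in Sftpc wells, 232 CPM (192 to 277) in Scgb3a1 wells and 222 CPM (183 to 267) in other wells. The 3 intervals overlapped almost completely, and no order of the classes can be read from them. Per well, the median was 208 CPM and the highest value 1571 CPM in Sftpc wells, 186 CPM and 895 CPM in Scgb3a1 wells, and 176 CPM and 1132 CPM in other wells. As sequenced, 55.6% of Sftpc wells, 78.4% of Scgb3a1 wells and 60.0% of other wells had a count, but at equal depth the shares were 39.4%, 42.2% and 37.1%.

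Klf13, which like Klf9 belongs to the Sin3a-binding branch of the family, had 11 counts in Sftpc wells, 53 in Scgb3a1 wells and 33 in other wells. Its level was 45.7 CPM (22.8 to 81.8) in Sftpc wells, 103 CPM (77.4 to 135) in Scgb3a1 wells and 65.3 CPM (45.0 to 91.7) in other wells. The intervals of Sftpc and other wells overlapped over much of their length, and that of Scgb3a1 wells overlapped both at its lower end. As sequenced, every Sftpc well with Klf13 held exactly 1 count, whereas 21.6% of Scgb3a1 wells and 7.78% of other wells held at least 2. At least 1 count was found in 17.5% of Sftpc wells, 40.5% of Scgb3a1 wells and 26.7% of other wells. At equal depth these shares were 13.5%, 20.4% and 13.1%, so Sftpc wells were not below other wells on that measure.

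Klf3 and Klf2 were the sparsest of the 7 genes. Klf3 had 12 counts in Sftpc wells, 21 in Scgb3a1 wells and 8 in other wells, which gave 49.9 CPM (25.8 to 87.1), 40.9 CPM (25.3 to 62.6) and 15.8 CPM (6.84 to 31.2). The Klf3 intervals of Sftpc and Scgb3a1 wells overlapped over much of their length. The Klf3 interval of other wells overlapped both at its upper end, although the intervals of the Klf3 ratios over other wells exclude 1. Klf2 had 6 counts in Sftpc wells, 7 in Scgb3a1 wells and 11 in other wells, at 24.9 CPM (9.15 to 54.3), 13.6 CPM (5.48 to 28.1) and 21.8 CPM (10.9 to 39.0). No order of the classes can be read for Klf2. The summed level of the 10 endothelial markers was 54.0 CPM in Sftpc wells, 3.90 CPM in Scgb3a1 wells and 31.7 CPM in other wells, and its part in the Klf2 levels was not tested.

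**Figure D3:**
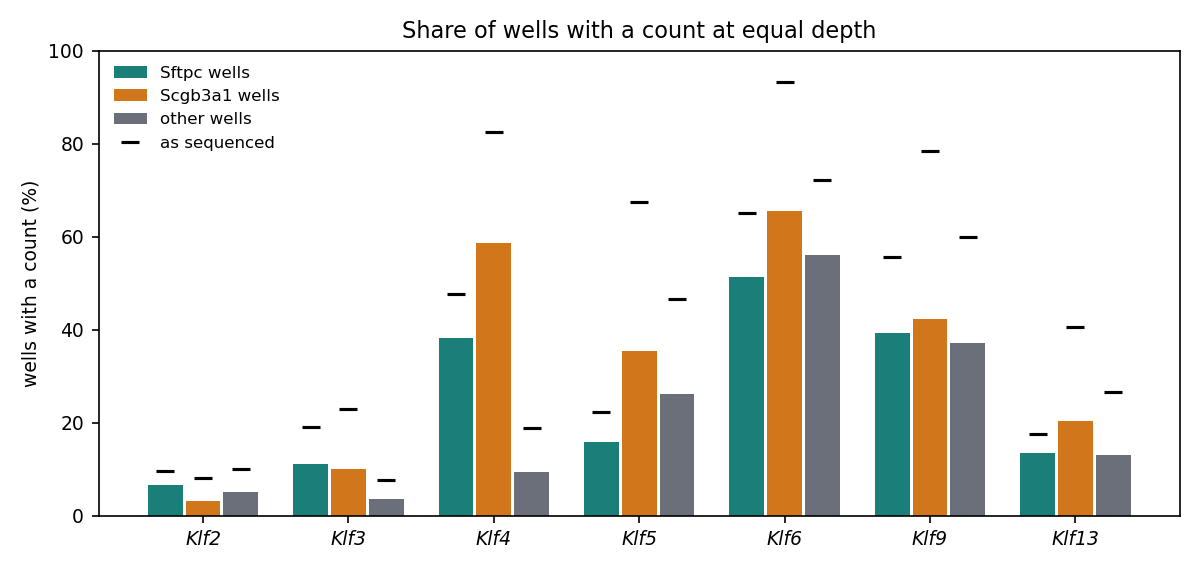
Expected share of wells with at least 1 count of each gene after thinning every well to 2384 counts (bars), with the share as sequenced as a black dash, in Sftpc wells, Scgb3a1 wells and other wells. At equal depth the Klf4 shares are 38.1%, 58.6% and 9.36%, while the Klf9 shares lie between 37.1% and 42.2%.

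The classes were then compared by the ratio of pooled CPM, whose 95% interval is exact and conditions on the counts of both classes. A gene with at least 20 counts in both classes together is called measured, and a ratio of at least 2-fold in either direction is called past the 2-fold size. This is a rule of size in 1 sample and not a test. Of the 7 genes, Klf2 stayed below 20 counts in each comparison and the other 6 were measured.

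In Sftpc wells over other wells, 2 of the 6 measured genes were past the 2-fold size, both higher. Over all 3854 measured genes the share was 27.1%, with 17.4% higher and 9.68% lower, so 2 of 6 is near the background. Klf4 was 4.74-fold higher (3.06 to 7.49) and Klf3 was 3.15-fold higher (1.18 to 8.88). Klf3 had exactly the 20 counts needed to be measured, so its call was lost under 7 of 15 alternatives that left fewer counts, among them leaving out the well of each class with most Klf3 counts, while the ratio stayed at least 2-fold under all 15. Klf5 had a ratio of 0.517 (0.285 to 0.889), just short of the 2-fold size, and Klf6 one of 0.749 (0.579 to 0.962). Klf13 had a ratio of 0.700 (0.319 to 1.42) and Klf9 one of 1.03 (0.733 to 1.44), and both intervals include 1. TMM scaling put Klf9 at a log2 ratio of -0.27. The median log2 ratio was -0.19 over the 6 genes and 0.18 over all measured genes. Under the 3 other scalings, all log2 ratios of this comparison were lower by 0.23 to 0.32. TMM scaling put the median of all measured genes at -0.14 and changed the split of genes past the 2-fold size to 445 higher and 561 lower, against 671 higher and 373 lower by totals. Relative to the median of all measured genes, the log2 ratio was 2.07 for Klf4, 1.48 for Klf3, -1.13 for Klf5, -0.69 for Klf13, -0.59 for Klf6 and -0.13 for Klf9. Klf5 was past the 2-fold size under 11 of 15 alternatives, among them TMM scaling with a log2 ratio of -1.27.

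In Scgb3a1 wells over other wells, again 2 of the 6 measured genes were past the 2-fold size, both higher, against 17.4% of 4536 measured genes, with 8.13% higher and 9.24% lower. Klf4 was 7.40-fold higher (5.07 to 11.1), which placed it 59th from the highest ratio among the 4536 measured genes. Klf3 was 2.58-fold higher (1.10 to 6.75) and was both measured and past the size under 12 of 15 alternatives; its log2 ratio was 0.92 in the first set and 0.73 in the third. Klf13 had a ratio of 1.58 (1.01 to 2.52) and Klf5 one of 1.44 (1.05 to 1.99), whereas the intervals of Klf6, at 1.14 (0.959 to 1.36), and Klf9, at 1.05 (0.801 to 1.37), include 1. The median log2 ratio was 0.59 over the 6 genes and -0.02 over all measured genes. Both comparisons share the other wells, so their values are given side by side and not as separate evidence.

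In Sftpc wells over Scgb3a1 wells, 2 of the 6 measured genes were past the 2-fold size, both lower, against 32.9% of 3834 measured genes, with 19.7% higher and 13.2% lower. Klf5 had a ratio of 0.359 (0.201 to 0.604) and was at least 2-fold lower under all 15 alternatives run for it, with too few counts to be measured in the third set. Klf13 had a ratio of 0.443 (0.208 to 0.857) and was past the size under 13 of 15, the exceptions being the mean of CPM over wells and the third set, where the ratio was 0.828 (0.171 to 7.87). Klf4 had a ratio of 0.641 (0.483 to 0.840) and Klf6 one of 0.655 (0.508 to 0.837). Klf9, at 0.985 (0.702 to 1.37), and Klf3, at 1.22 (0.546 to 2.59), had intervals that include 1, and Klf3 had a log2 ratio of -0.09 under TMM scaling. The median log2 ratio was -0.63 over the 6 genes and 0.20 over all measured genes. TMM scaling lowered all ratios of this comparison by 0.38 on the log2 scale, moved the split of genes past the size to 491 higher and 763 lower, against 757 higher and 506 lower by totals, and put Klf4 at a log2 ratio of -1.02. Relative to the median of all measured genes, Klf5 was at -1.68, Klf13 at -1.38, Klf4 at -0.84 and Klf6 at -0.81.

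The deposited table was also read in 3 successive sets of 96 columns, which the labels do not describe as plates or batches, since the classes were spread unevenly over them. Sftpc wells numbered 6, 17 and 40 in the 3 sets, Scgb3a1 wells 38, 31 and 5, and other wells 38, 33 and 19. In the first set Klf4 was at 209 CPM in Sftpc wells, 359 CPM in Scgb3a1 wells and 70.1 CPM in other wells. In the second set it was at 296 CPM, 575 CPM and 45.4 CPM in the same classes. In the third set it was at 308 CPM in Sftpc wells, 156 CPM in the 5 Scgb3a1 wells, from 4 counts, and 82.3 CPM in other wells. Klf4 was therefore higher in Sftpc than in other wells in each set, with ratios of 2.98 (1.02 to 7.88), 6.53 (2.92 to 15.6) and 3.74 (1.67 to 9.87). The ratio of Scgb3a1 to other wells was 5.12 (2.89 to 9.76) and 12.7 (6.69 to 27.0) in the first 2 sets and 1.89 (0.406 to 7.45) in the third. Sftpc over Scgb3a1 wells gave 0.582 (0.227 to 1.25), 0.515 (0.306 to 0.826) and 1.98 (0.719 to 7.58), so the direction turned in the third set, where both the interval and the number of Scgb3a1 wells allow either direction. Klf5 was lower in Sftpc than in Scgb3a1 wells in all 3 sets, with ratios of 0.328 (0.0385 to 1.26), 0.210 (0.0420 to 0.648) and 0.441 (0.145 to 1.60). The third of these rests on 12 and 5 counts, and in that set Klf5 was at 195 CPM in Scgb3a1 wells and 200 CPM in other wells. Klf13 in Sftpc over other wells had a ratio of 0.541 (0.0126 to 3.72) in the first set, 0.155 (0.00376 to 0.967) in the second and 5.49 (0.760 to 240) in the third. The third-set Klf13 levels were 64.5 CPM in Sftpc wells, from 9 counts, 77.9 CPM in Scgb3a1 wells, from 2 counts, and 11.8 CPM in other wells, from 1 count. That set holds 40 of the 63 Sftpc wells, and there Klf13 was not lowest in Sftpc wells. The Klf6 ratio of Sftpc to other wells was 0.525 (0.234 to 1.04) in the first set, 1.20 (0.771 to 1.84) in the second and 0.510 (0.337 to 0.768) in the third, so its direction was not the same in each set.

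**Figure D4:**
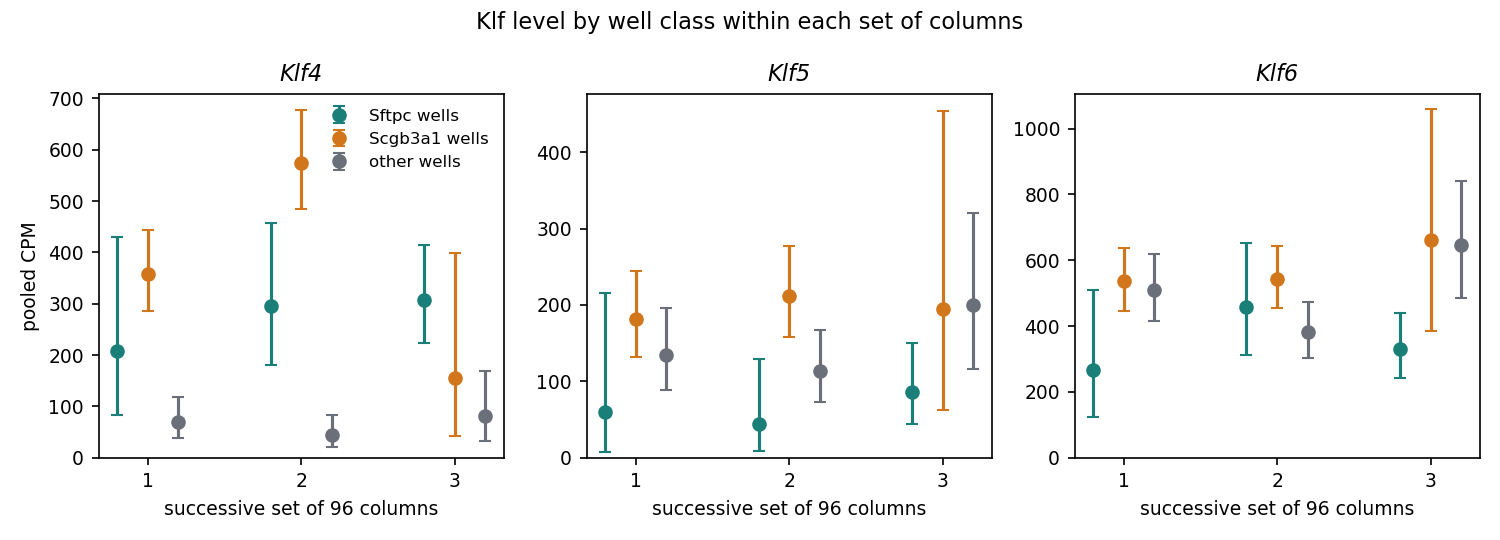
Pooled CPM of Klf4, Klf5 and Klf6 in Sftpc wells, Scgb3a1 wells and other wells within each of 3 successive sets of 96 columns, with exact Poisson 95% intervals. Klf4 in Scgb3a1 wells lies at 359 and 575 CPM in the first 2 sets and at 156 CPM with a wide interval in the third, which holds 5 such wells.

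A single well carried 10 of the 31 Klf4 counts of the other wells, or 32.3%. It also had 20 counts of the mucin gene Muc5b, and its Scgb3a1 share was the 0.876% just below the class limit. With the limit at 0.5%, the log2 ratio of Klf4 was 2.76 in Sftpc over other wells and 3.46 in Scgb3a1 over other wells. With the limit at 2% it was 1.59 in Sftpc over other wells and 2.27 in Scgb3a1 over other wells, since 9 wells with an Scgb3a1 share of 1 to 2% then also counted as other wells. Without the well of each class with most Klf4 counts, the log2 ratio was 2.65 in Sftpc over other wells and 3.38 in Scgb3a1 over other wells. No other well outside the Sftpc and Scgb3a1 classes had more than 3 Klf4 counts.

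Splitting the classes by a further secretory gene gave Klf4 ratios whose intervals include 1. In Scgb3a1 wells with Bpifa1, an airway secretory gene, at 1% of the total or more, Klf4 was at 467 CPM over 31 wells, against 444 CPM in the 43 wells below that share, a ratio of 1.05 (0.803 to 1.37). Klf6 was at 426 CPM in the wells with more Bpifa1 and 633 CPM in those with less, a ratio of 0.673 (0.518 to 0.868). In Sftpc wells with Scgb1a1 at 1% or more, Klf4 was at 328 CPM over 31 wells, against 244 CPM in the 32 wells below that share, a ratio of 1.35 (0.811 to 2.28). These splits were chosen after the values were seen.

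The 7 genes were counted together most often in Scgb3a1 wells. A median of 2 genes per Sftpc well, 4 per Scgb3a1 well and 2 per other well had a count, and at least 4 of the 7 were counted in 14.3% of Sftpc wells, 67.6% of Scgb3a1 wells and 18.9% of other wells. The medians of total counts, 3529, 6940.5 and 5406 in the same classes, differ as well, and their part in these shares was not tested. Klf4 made up 27.2% of the counts of the 7 genes in Sftpc wells, 28.6% in Scgb3a1 wells and 6.14% in other wells. For pairs, the share of wells with both genes was set beside the product of the separate shares. Over the 21 pairs in 3 classes, the 25 combinations with at least 10 wells holding both genes had a quotient of 0.903 to 1.20, and the 38 with fewer such wells had one of 0 to 2.25. The quotient of 2.25 was that of Klf2 and Klf5 in Sftpc wells, from 3 wells with both. Klf4 and Klf6 were both counted in 30.2% of Sftpc wells, 78.4% of Scgb3a1 wells and 13.3% of other wells, where the products were 31.0%, 76.9% and 13.6%. Klf6 and Klf9 were both counted in 42.9% of Sftpc wells, 75.7% of Scgb3a1 wells and 45.6% of other wells, where the products were 36.2%, 73.1% and 43.3%.

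Other genes of the family and of its pathways were described from lists by the number of members past the 2-fold size and the median log2 ratio. Of 10 further Klf genes, Klf1, Klf14 and Klf17 were at 0 counts in every class, and the list summed to 74.8 CPM in Sftpc wells, 81.8 CPM in Scgb3a1 wells and 69.3 CPM in other wells. Klf15, a glucocorticoid target in other tissues, was the only one measured, in Scgb3a1 over other wells, with a log2 ratio of -0.92 from 7 counts and 13 counts. Of 9 Sp factors, which bind the same GC boxes, Sp1 and Sp3 were measured, and neither was past the 2-fold size in any of the 3 comparisons.

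Immediate early genes are transcribed soon after a stimulus, also during tissue dissociation, and the list held 25 genes. In Sftpc over other wells 5 of 22 measured genes were past the 2-fold size upwards and 2 downwards, with a median log2 ratio of 0.34 against 0.18 over all measured genes. Over all measured genes 17.4% were past the size upwards and 9.68% downwards, so both counts are near the background. Hspa1a, a heat shock protein gene, was 3.73-fold higher (1.55 to 9.58), the AP-1 gene Jund was 2.98-fold higher (2.40 to 3.70) and the zinc finger gene Egr2 had 1 count in Sftpc wells and 29 in other wells, a ratio of 0.0724 (0.00177 to 0.437). With TMM scaling 2 genes of the list were past the size upwards and 2 downwards, against 445 and 561 of all 3854 measured genes. In Scgb3a1 over other wells 2 of 22 were past the size upwards and 2 downwards, with a median of 0.12, against 8.13% upwards, 9.24% downwards and a median of -0.02 over all measured genes. Egr2, with 7 counts in Scgb3a1 wells and 29 in other wells, and Socs3, a feedback inhibitor of cytokine signalling at a ratio of 0.384 (0.258 to 0.561), were the 2 lower genes. In Sftpc over Scgb3a1 wells 4 of 21 were past the size upwards and 1 downwards, with a median of 0.51. Egr1 was at 3.25-fold (2.60 to 4.08) and Jun at 3.06-fold (2.61 to 3.59). Over all measured genes 19.7% were upwards and 13.2% downwards, with a median of 0.20. With TMM scaling the list had 2 upwards and 2 downwards, against 491 and 763 of all 3834 measured genes. The summed level of the list was 10774 CPM in Sftpc wells, 7303 CPM in Scgb3a1 wells and 7180 CPM in other wells, and its part in the Klf levels was not tested.

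**Figure D5:**
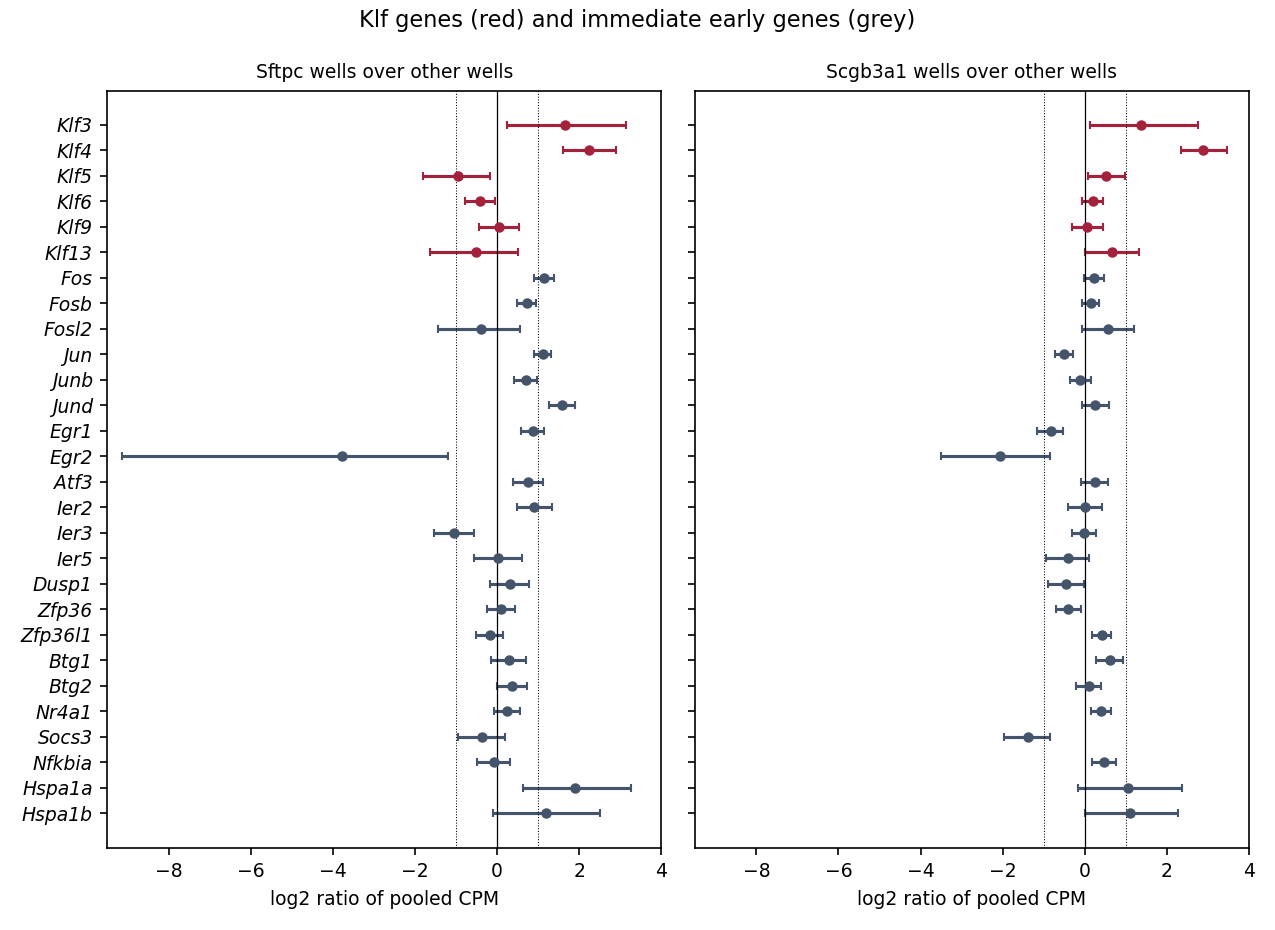
Log2 ratio of pooled CPM with 95% intervals for the 6 measured Klf genes (red) and 22 immediate early genes (grey), in Sftpc wells over other wells on the left and Scgb3a1 wells over other wells on the right, with dotted lines at the 2-fold size. Klf4 lies at 2.25 and 2.89, and no immediate early gene lies above 1.90 on the left or above 1.10 on the right.

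Of 12 genes known to respond to glucocorticoid, 5 of 10 measured were past the 2-fold size upwards and none downwards in Sftpc over other wells. Their median log2 ratio was 0.78. Over all measured genes 17.4% were upwards and 9.68% downwards, with a median of 0.18. With TMM scaling the list had 3 upwards and 1 downwards, against 445 and 561 of all 3854 measured genes. Ddit4, an inhibitor of mTORC1, was 4.39-fold higher (2.06 to 9.97), the triglyceride lipase gene Pnpla2 2.97-fold (1.80 to 4.95) and Tsc22d3, the leucine zipper protein GILZ, 2.80-fold (1.36 to 5.88). In Scgb3a1 over other wells 3 of 10 were past the size upwards and 1 downwards, with a median of 0.09. The values over all measured genes were 8.13%, 9.24% and -0.02. With TMM scaling the list had 3 upwards and none downwards, against 419 and 367 of all 4536 measured genes. The kinase gene Sgk1 was 7.88-fold higher (4.31 to 15.8), and the metallothionein genes Mt2 and Mt1 were 3.00-fold (2.09 to 4.38) and 2.25-fold (1.69 to 3.04) higher. Single wells weighed on both metallothionein ratios. Among other wells, the highest well held 26 of the 41 Mt2 counts and the highest for Mt1 held 33 of 69. Among Scgb3a1 wells, the highest held 29 of the 125 Mt2 counts and the highest for Mt1 held 16 of 158. In Sftpc over Scgb3a1 wells 4 of 9 were past the size upwards and 2 downwards, with a median of -0.29. The values over all measured genes were 19.7%, 13.2% and 0.20. With TMM scaling the list had 4 upwards and 3 downwards, against 491 and 763 of all 3834 measured genes. Klf9, itself a glucocorticoid target, was at a ratio of 1.03, 1.05 and 0.985 in the 3 comparisons.

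Of 17 genes for regulators and partners of Klf proteins, 9 were measured against other wells. In Sftpc over other wells 4 of 9 were past the 2-fold size upwards and none downwards, with a median log2 ratio of 0.81. Over all measured genes 17.4% were upwards and 9.68% downwards, with a median of 0.18. With TMM scaling 2 of the list were upwards, against 445 of all 3854 measured genes. Foxo1, a factor that activates Klf2 in lymphocytes, was 2.73-fold higher (1.11 to 6.95), Mef2d, of the family that induces Klf2 and Klf4 in endothelium, 2.52-fold (1.20 to 5.37) and Ctbp2, the Klf3 corepressor, 2.31-fold (1.20 to 4.46). In Scgb3a1 over other wells 1 of 9 was past the size upwards and 3 downwards, with a median of 0.16, against 8.13%, 9.24% and -0.02 over all measured genes. Wwp1, a ubiquitin ligase that targets Klf2 and Klf5 protein, had a ratio of 0.185 (0.0796 to 0.380), and the acetyltransferase gene Ep300 one of 0.422 (0.195 to 0.857). In Sftpc over Scgb3a1 wells 4 of 8 were past the size upwards and none downwards, with a median of 0.68. The values over all measured genes were 19.7%, 13.2% and 0.20. With TMM scaling 1 of the list was upwards, against 491 of all 3834 measured genes.

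All 4 genes of the list of epithelial Klf targets were measured. In Sftpc over other wells none was past the 2-fold size upwards and 2 downwards, with a median of -0.53. The values over all measured genes were 17.4%, 9.68% and 0.18. In Scgb3a1 over other wells 1 was upwards and 1 downwards, with a median of -0.15, against 8.13%, 9.24% and -0.02. In Sftpc over Scgb3a1 wells 1 was upwards and 1 downwards, with a median of -0.38, against 19.7%, 13.2% and 0.20. Krt19, a keratin of simple epithelia, was at 112 CPM in Sftpc wells, 1208 CPM in Scgb3a1 wells and 457 CPM in other wells, with a ratio of 2.64 (2.27 to 3.09) in Scgb3a1 over other wells and 0.245 (0.158 to 0.366) in Sftpc over other wells. Cdkn1a, the cell cycle inhibitor p21, was at 199 CPM in Sftpc wells, 50.7 CPM in Scgb3a1 wells and 182 CPM in other wells, with a ratio of 0.278 (0.173 to 0.434) in Scgb3a1 over other wells. Ccnd1, cyclin D1, was at 370 CPM in Sftpc wells and 825 CPM in other wells, a ratio of 0.448 (0.352 to 0.565). Cdh1 differed little, at 345 CPM in Sftpc wells, 312 CPM in Scgb3a1 wells and 321 CPM in other wells.

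Genes of like pattern were sought over the 227 kept wells by Pearson's r on log2(CPM + 100) among genes with at least 100 counts. None reached r = 0.5 with any of the 7 genes. The nearest to Klf4 was Pdpn, podoplanin, at r = 0.49, although Pdpn was at 0 counts in Sftpc wells, where Klf4 was at 291 CPM. The nearest for each of the other 6 genes had r between 0.20 for Klf13 with Arf4 and 0.29 for Klf5 with Anxa1. These r values were taken across the classes and so include the differences between them. The class gene Scgb3a1 had r = 0.48 with Klf4 over all kept wells. Within the classes it had 0.24 in Scgb3a1 wells, -0.096 in Sftpc wells and 0.21 in other wells. The wells also share the sample and the depth differences between the classes, and correlations of this size in sparse counts are given as a description.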

How the data were processed

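The authors deposited whole-number counts per gene symbol for 24781 genes in 288 wells, not normalized. Per the submitters' processing notes, reads were aligned with STAR to mm10. The annotation, the counting tool, strand use and the collapsing of molecular barcodes are, in the sources used here, not given, so counts may include PCR copies. Intervals of levels and ratios cover counting error only, and intervals of shares treat the wells of the 1 sample as independent draws. Spike-in molecules, added per the labels' protocols, and mitochondrial genes have no rows in the table used here. Wells above 2340 counts were kept, which left 227 of 286. Doublets were not called.

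Levels were pooled CPM with exact Poisson intervals, shares had exact Clopper-Pearson intervals and ratios exact conditional binomial intervals, all at 95% (Python 3.11.15, numpy 2.4.6, pandas 2.3.3, scipy 1.17.1, matplotlib 3.10.9). The 7 genes, the lists and the classes were chosen with earlier results of these data known. All 7 genes were named. Of each list up to 4 measured genes with the largest log2 ratio were named, plus genes a result turns on. For likeness the highest gene was named where r stayed below 0.5. Alternatives were other scalings (TMM factors with edgeR 4.0.16 in R 4.3.3, median of ratios, totals without the 5 most abundant named genes), well and class limits, each set of 96 columns, removal of ciliated or top wells, and the minimum count. Calculations were tested on simulated data.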

Additional observations from a re-analysis of the deposited data

How the results depend on the processing

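No paired analysis was possible because the classes are wells of 1 sample and no test was run. The ratios past the 2-fold size kept their sign under every alternative run for them. These were Klf3 and Klf4 in both comparisons with other wells, and Klf5 and Klf13 in Sftpc over Scgb3a1 wells. Klf6 and Klf9 had no such ratio, and some ratios short of that size changed sign. In Sftpc over other wells the alternatives ran from -0.97 to 0.27 for Klf6, -0.78 to 0.28 for Klf9 and -2.74 to 2.46 for Klf13. The number of measured genes past the 2-fold size depended on the wells and on the minimum of 20 counts. In Sftpc over other wells it was 1044 in all sets, 267, 474 and 428 in the 3 sets alone, 654 by the mean over sets and 5208 with no minimum. In Scgb3a1 over other wells it was 788 in all sets, 390, 463 and 168 in the sets alone, 442 by the mean and 4309 with no minimum. In Sftpc over Scgb3a1 wells it was 1263 in all sets, 425, 618 and 329 in the sets alone, 519 by the mean and 5538 with no minimum. Fewer wells gave fewer measured genes.

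The Klf4 log2 ratio in Sftpc over other wells was 2.25, with 1.59 at the class limit of 2% and 1.57 in the first set. In Scgb3a1 over other wells it was 2.89, with 2.27 at the limit of 2%, 3.66 in the second set, 0.92 in the third and 2.31 as the mean over sets. In Sftpc over Scgb3a1 wells it was -0.64, with 0.98 in the third set, where the sign turned on 4 Klf4 counts in 5 Scgb3a1 wells. The cause of these shifts was not tested. Klf13 in Sftpc over Scgb3a1 wells was at -1.18, with -0.89 by the mean of CPM over wells, -3.37 among wells above 4000 counts and -0.27 in the third set. Klf13 in Sftpc over other wells was at -0.52, with 2.46 in the third set. Thinning moved 13 of 21 shares of wells, and a limit of 2 counts moved all 21, since both remove counts. Depth limits Klf2, Klf3 and Klf13 most, with 6 to 53 counts per class.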

Other observations

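Wells below the limit of 2340 counts, which enter no comparison, were read for Klf4. In 19 removed wells with at least 500 counts and Sftpc at 1% or more, Klf4 had 10 counts, or 328 CPM (157 to 603), where the kept Sftpc wells had 291 CPM. In 18 removed wells with at least 500 counts and both genes below the limit, Klf4 had 0 of 21750 counts, with an exact Poisson 95% interval of 0 to 170 CPM. In 3 removed wells with at least 500 counts and Scgb3a1 at 1% or more, Klf4 had 0 of 4382 counts (0 to 842 CPM), where the kept Scgb3a1 wells had 454 CPM.

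In Sftpc wells, Klf13 was at 14.9 CPM in the 31 wells with Scgb1a1 at 1% or more and 84.4 CPM in the 32 wells below that share, a ratio of 0.177 (0.0186 to 0.854) from 2 and 9 counts, a split chosen after the values were seen. The third set of columns, with 40 of the 63 Sftpc wells, held 9 of their 11 Klf13 counts. The part of the sets in this split was not tested.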
